A study of Mus musculus with 8 samples.

Results

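Accessible chromatin of Ras-transformed and parental mammary epithelial cells was compared under TGF-β. EpH4 is a mouse mammary gland epithelial cell line, and EpRas is its derivative transformed with an oncogenic H-Ras. Open chromatin had been mapped by FAIRE-seq, which enriches DNA left free of protein after crosslinking. Both lines had received 1 ng/ml TGF-β3 for 8 days, in 2 libraries each, and the other 4 of the 8 libraries were untreated cells of the same lines. A region entered the comparison when it was called in both libraries of a line after peaks sharing at least 1 bp were merged, and it was specific when it overlapped no such region of the other line. By this rule 8340 regions were specific to EpRas and 2414 to EpH4 cells, while the 4 treated libraries held 33563 merged regions and all 8 held 37230.

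EpRas is 1 derived line, cultured in 4% serum, whereas EpH4 cells had 10% serum. Ras, the history of the line and serum therefore cannot be told apart. The files list peaks without read counts, so depth is unknown and a region without a peak may still be open. A site open in fewer cells and a site less open in every cell cannot be told apart either.

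Oncogenic Ras signals through the ERK kinases to transcription factors such as AP-1 and ETS proteins. TGF-β acts through receptor kinases and Smad proteins. In epithelial-mesenchymal transition (EMT), ZEB and SNAI repressors bind E-box sequences such as CAGGTG in epithelial genes, of which *Cdh1*, encoding E-cadherin, is the textbook case.

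Sequences of 6 regions are shown because they carry the 2 motifs that separated the lines most. They are the 3 highest-scored EpRas regions with the AP-1 sequence TGACTCA and the 3 highest-scored EpH4 regions with CAGGTG, each without a peak in the TGF-β libraries of the other line. Capitals mark both motifs on either strand in 120 bases of GRCm38 (mm10), plus strand. Nearest genes are those with the nearest protein-coding start site, and noncoding genes may lie nearer.
EpRas-specific, intron of Pced1b, chr15:97315487-97315606: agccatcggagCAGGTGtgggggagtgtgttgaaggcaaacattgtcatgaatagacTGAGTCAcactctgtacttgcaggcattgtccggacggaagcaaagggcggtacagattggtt
EpRas-specific, intron of Mtcl1, chr17:66352432-66352551: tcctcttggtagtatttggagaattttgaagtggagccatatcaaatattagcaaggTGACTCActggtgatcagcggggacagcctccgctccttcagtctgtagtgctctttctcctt
EpRas-specific, nearest to Col14a1, chr15:55268668-55268787: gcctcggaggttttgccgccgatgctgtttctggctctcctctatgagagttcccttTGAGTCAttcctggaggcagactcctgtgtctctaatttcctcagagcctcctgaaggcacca
EpH4-specific, intron of Cwc27, chr13:104742918-104743037: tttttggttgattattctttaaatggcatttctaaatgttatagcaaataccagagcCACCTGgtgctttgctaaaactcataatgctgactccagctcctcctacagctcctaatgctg
EpH4-specific, nearest to Cox18, chr5:90167358-90167477: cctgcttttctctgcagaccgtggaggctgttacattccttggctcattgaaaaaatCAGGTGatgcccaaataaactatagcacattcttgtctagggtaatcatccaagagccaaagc
EpH4-specific, intron of Vsig10, chr5:117330573-117330692: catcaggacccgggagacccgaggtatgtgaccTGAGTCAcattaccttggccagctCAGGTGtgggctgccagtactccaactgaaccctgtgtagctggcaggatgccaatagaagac

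The printed stretches in *Pced1b*, specific to EpRas, and in *Vsig10*, specific to EpH4, each held both motifs. The EpH4-specific region in *Cwc27* also had the AP-1 sequence, beyond its printed bases. The *Pced1b* region had peaks in both untreated EpH4 libraries as well. The region nearest to *Col14a1*, which encodes a collagen, had a peak in 1 of them. The regions in *Mtcl1*, *Cwc27* and *Vsig10* and the one nearest to *Cox18* had peaks in both untreated libraries of their own line and in 0 of the other.

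The lists held 27337 and 16833 peaks in EpRas and 17927 and 10821 peaks in EpH4 cells. The lines overlapped in the number of peaks. The ratio of 1.54-fold (0.62 on the log2 scale) was within the spread between replicates (p = 0.667 by a two-sided exact permutation test over 2 and 2 libraries). Without EpRas replicate 1 the log2 difference was 0.27, without EpRas replicate 2 0.97, without EpH4 replicate 1 0.99 and without EpH4 replicate 2 0.26. With 2 libraries a line the smallest p-value of this exact test is 0.333.

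Of 15038 EpRas regions 55.5% were specific (Wilson 95% interval 54.7 to 56.3), and of 9112 EpH4 regions 26.5% (25.6 to 27.4). These intervals cover counting error only. Part of the specific set had a peak in 1 library of the other line. Among EpRas-specific regions 3481 had one in EpH4 replicate 1 and 528 in replicate 2, and among EpH4-specific regions 1243 had one in EpRas replicate 1 and 135 in replicate 2. Regions with no peak in either library of the other line, called strictly specific here, numbered 4337 in EpRas (28.8%) and 1037 in EpH4 cells (11.4%).

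When each list was reduced to its 10821 highest-scored peaks, most of this asymmetry was gone. Specific regions were then 45.2% of 7535 EpRas regions (44.0 to 46.3) and 41.4% of 7059 EpH4 regions (40.3 to 42.6). Strictly specific regions numbered 1677 and 1565. In these equal lists, a library missed 41.0% to 46.1% of its peaks in a library of the other line and 30.3% to 34.7% in its own replicate.

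**Figure D1:**
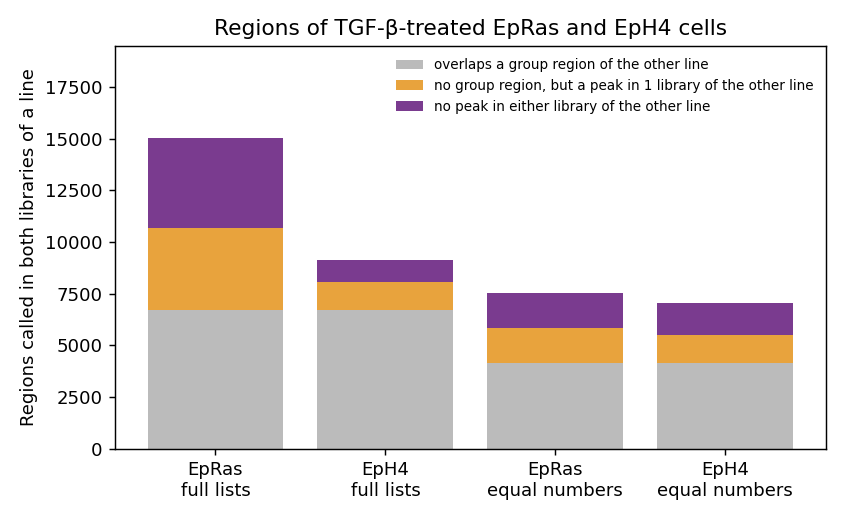
Number of regions called in both libraries of a line under TGF-β, for full lists and for equal numbers of peaks, split by whether the region was shared, called in 1 library of the other line or in neither. Regions called in neither numbered 4337 in EpRas and 1037 in EpH4 cells with full lists, and 1677 and 1565 with equal numbers.

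Specific regions ranked lower than shared ones. The median percentile of the score within the list was 58.1 and 42.3 in EpRas replicates 1 and 2 for EpRas-specific regions, and 82.4 and 70.4 for shared ones. In EpH4 replicates 1 and 2 it was 50.6 and 40.7 for EpH4-specific and 73.9 and 60.5 for shared regions.

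Most specific regions of both lines were distal. Promoters, with the midpoint within 2 kb of a start site, made up 30.6% of EpRas-specific (29.6 to 31.5) and 31.2% of EpH4-specific regions (29.4 to 33.1), against 45.0% of the EpRas regions shared with EpH4. Introns held 36.5% and 32.6%, and intergenic DNA 30.8% and 34.0%. The median distance of distal regions to the nearest protein-coding start site was 35.4 kb for EpRas-specific and 31.6 kb for EpH4-specific regions. Per library, promoters made up 33.2% and 36.04% of EpRas peaks and 37.8% and 40.4% of EpH4 peaks in full lists. There the lines did not overlap (difference -4.49 points, p = 0.333 by the same exact test). Of the 10821 highest-scored peaks of each list, 6365 and 6525 in EpRas and 6258 and 6446 in EpH4 cells were distal. With these equal numbers the lines overlapped.

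The untreated libraries, which the rule had not used, were then read to ask whether the regions differed between the lines without TGF-β. EpRas-specific regions had a peak in 61.3% and 50.2% of cases in untreated EpRas replicates 1 and 2, and in 30.5% and 32.1% in untreated EpH4 replicates 1 and 2. EpH4-specific regions had one in 55.7% and 56.2% in untreated EpH4 and in 39.1% and 28.6% in untreated EpRas libraries. In both cases the libraries of the own line lay above those of the other line, without overlap. The untreated lists held 17210 and 13784 peaks in EpRas and 12462 and 13092 in EpH4 cells. They were not reduced to equal numbers, and the part of their length in these shares was not tested. The difference was 24.4 points for EpRas-specific regions (55.7% ± 7.88 against 31.3% ± 1.17, SD, n = 2 each, exact permutation test, two-sided, p = 0.333) and 22.1 points for EpH4-specific ones (exact p = 0.333). The first fell to 15.5 points without EpRas TGF-β replicate 2. The second was 9.62 points when EpH4 TGF-β replicate 2 was left out and 35.0 when EpRas TGF-β replicate 2 was, and 14.5 with equal numbers of peaks.

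In the strictly specific regions the shares were 49.2% and 38.4% against 13.9% and 15.5% for EpRas, and 49.7% and 50.0% against 15.8% and 8.20% for EpH4 cells. Another part of the specific regions had a peak only in the treated libraries. Of the EpRas-specific regions 1967 (23.6%), and of the EpH4-specific regions 493 (20.4%), had a peak in 0 of the 4 untreated libraries.

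**Figure D2:**
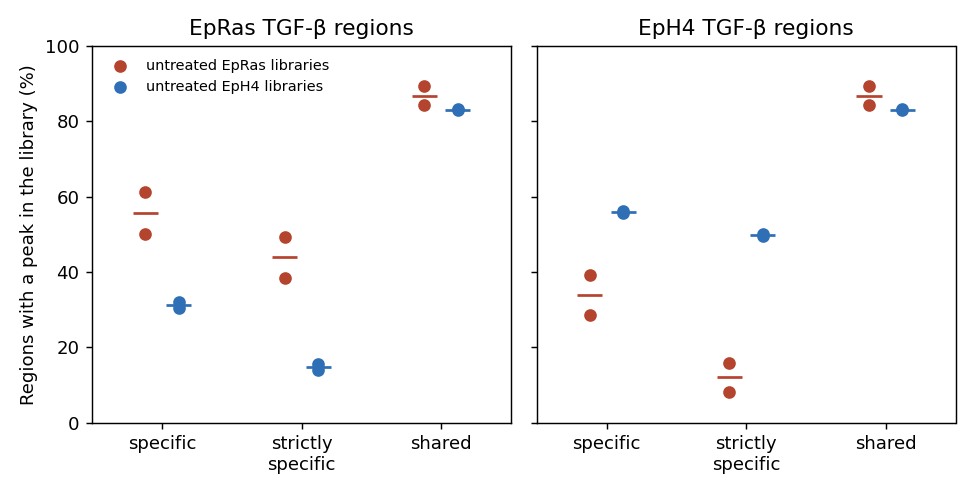
Share of TGF-β regions (%) with a peak in each untreated library, by set of regions. Points are libraries and horizontal lines their means. For specific regions the own line (50.2% to 61.3%) lies above the other line (28.6% to 39.1%), and for shared regions all libraries lie between 82.9% and 89.4%.

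The distal specific regions differed between the lines in sequence. The AP-1 sequence was more frequent in EpRas-specific and the E-box in EpH4-specific regions. Each of 11 fixed motifs was searched on both strands in 500 bp around the midpoint of 5792 EpRas-specific and 1661 EpH4-specific distal regions. Windows 10 kb downstream without a peak served as controls. Regions are not replicates, so no test was made over them.

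TGACTCA, bound by the Fos and Jun proteins of AP-1, was present in 57.4% of EpRas-specific (56.1 to 58.7) and 46.6% of EpH4-specific regions (44.2 to 49.0). Control windows held it in 8.31% and 7.82%, and the EpRas regions shared with EpH4 in 59.0%. Both specific sets thus lay far above their controls. The EpRas share was higher in 4 of 4 pairs of 1 EpRas and 1 EpH4 library, by 10.8 to 12.1 points. The 4 pairs reuse the same libraries and are not independent.

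CAGGTG is an E-box that ZEB and SNAI repressors can bind, and which factor bound it was not tested. It was present in 25.3% of EpRas-specific (24.2 to 26.4) and 39.3% of EpH4-specific regions (37.0 to 41.7). The controls held it in 30.1% and 31.1%. The EpRas-specific share was below its control and the EpH4-specific share above it, while the shared regions, at 27.7% against 32.6% in EpRas cells, were also below theirs. The difference was -14.8 to -11.7 points in the 4 pairs. In strictly specific regions the shares were 24.0% and 43.0%. At least 2 matches were present in 3.95% of EpRas-specific and 10.6% of EpH4-specific regions, and the median distance from the midpoint was 125 bp and 87 bp. Mean GC content of the distal regions was 45.3% and 47.8%, and its part in the difference was not tested.

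ACATTCC, bound by the TEAD factors of the Hippo pathway, was present in 11.7% of EpRas-specific and 16.6% of EpH4-specific regions. TTGGCA, a half-site of NFI factors, was present in 31.7% and 38.8%. Both were lower on the EpRas side in 4 of 4 pairs. The forkhead sequence TGTTTAC was present in 8.96% and 5.96% and the ETS sequences CCGGAAG in 3.21% and 2.53% and CAGGAAG in 26.5% and 24.0%, each higher on the EpRas side in 4 of 4 pairs. For CAGGAAG the difference of 2.51 points became -0.0884 without EpRas TGF-β replicate 2. The RUNX sequence TGTGGTT, in 18.7% and 18.1%, was higher in 2 of 4 pairs. The SMAD, GRHL and C/EBP sequences GTCTAGAC, AACCGGTT and TTGCGCAA were each present in under 1% of either set.

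**Figure D3:**
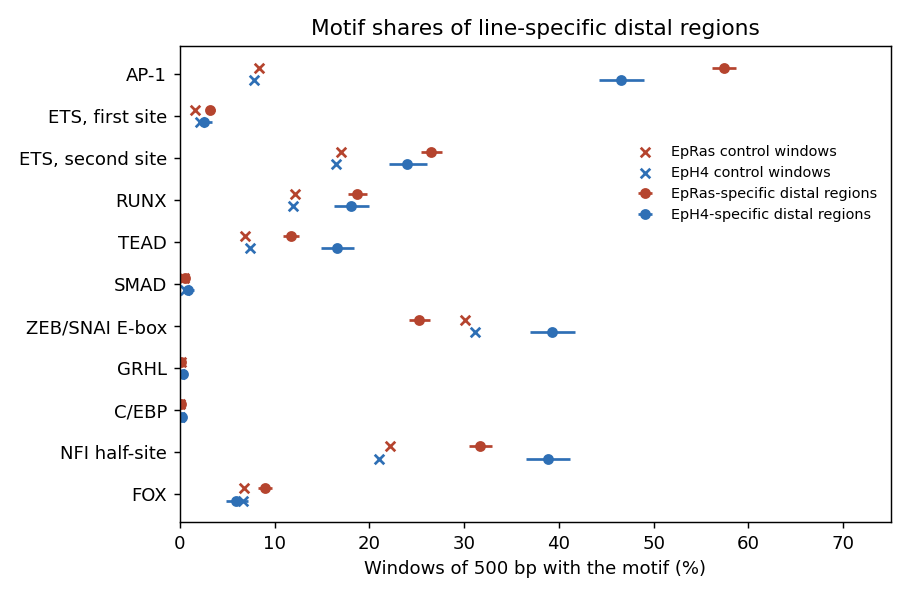
Share (%) of distal specific regions with each motif in 500 bp, for EpRas and EpH4 cells, with Wilson 95% intervals and the control windows. AP-1 is at 57.4% and 46.6% and the ZEB/SNAI E-box at 25.3% and 39.3%, while both controls of the E-box lie near 30%.

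Measured per library in the distal part of equal lists, the AP-1 share was 61.0% and 58.5% in EpRas and 54.2% and 51.8% in EpH4 cells under TGF-β. The lines did not overlap, with a difference of 6.82 points (exact permutation test, two-sided, p = 0.333). In untreated cells it was 53.8% and 52.5% in EpRas and 50.8% and 51.6% in EpH4, a difference of 1.91 points. The E-box share was 26.7% and 26.4% in EpRas and 32.0% and 31.5% in EpH4 cells under TGF-β, and 27.4% and 27.7% against 32.6% and 32.6% without it. The E-box difference was thus of similar size in both conditions, -5.21 and -5.04 points (exact p = 0.333 each). A change of either difference with treatment was not tested.

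**Figure D4:**
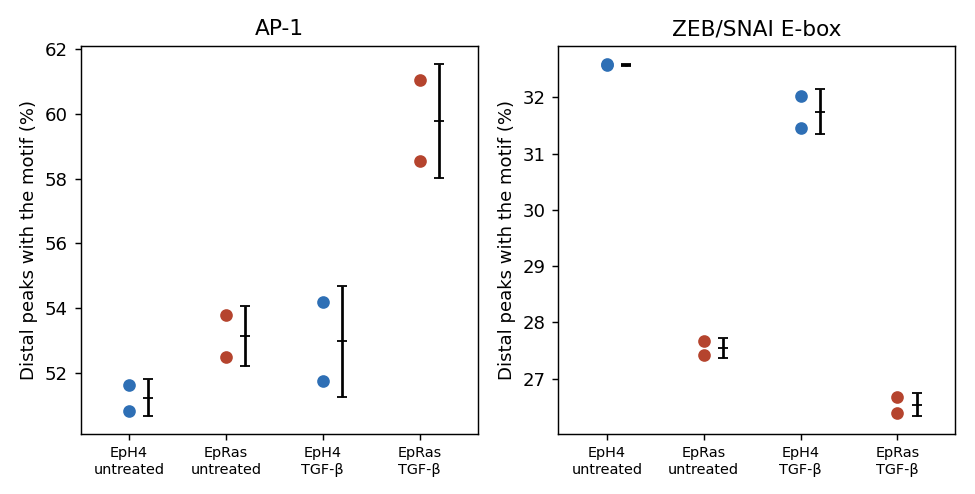
Share (%) of distal peaks with the AP-1 sequence and with the E-box in each of the 8 libraries at equal numbers of peaks, with the mean and SD of each group beside the points. The axes do not start at 0. AP-1 lies between 50.8% and 61.0%, highest in treated EpRas libraries, and the E-box is lower in all 4 EpRas than in all 4 EpH4 libraries.

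*Cdh1* was among the loci with more peaks in EpH4 cells. Within 20 kb of the gene there were 1 and 1 peaks in EpRas and 5 and 2 in EpH4 libraries. Its promoter, at -0.074 kb, had a peak in both EpH4 libraries, at percentiles 54.3 and 40.8, and in both untreated EpH4 libraries, at 60.4 and 51.8. None of the 4 EpRas libraries had one. An intronic region at 12.8 kb from the start site followed the same pattern, at percentiles 74.4 and 79.1 under TGF-β. A further intronic region, at 16.4 kb, was called in EpRas libraries only, at 85.2 and 40.5 under TGF-β and at 33.7 and 58.4 without it.

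*Etv4* and *Etv5* encode ETS factors of the PEA3 group. Their promoters had peaks in all 8 libraries. Under TGF-β the *Etv4* promoter was at percentiles 99.3 and 98.4 in EpRas and 87.3 and 49.2 in EpH4 cells. The *Etv5* promoter was at 88.0 and 97.6 against 77.1 and 57.5. In untreated cells the percentiles of the lines overlapped at both promoters. An *Etv5* intronic region at 50.4 kb was called in all 4 EpRas libraries, at percentiles 85.8 and 46.4 under TGF-β, and in 0 of the 4 EpH4 libraries. A region 16.5 kb from the *Etv4* start site was called only in the 2 EpRas TGF-β libraries, at 38.7 and 43.0. A region at 5.00 kb in *Etv5* was called only in the 2 EpH4 TGF-β libraries, at 46.0 and 42.4.

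The sequences of all regions called in both libraries of one line and in neither of the other at these 3 genes are shown, so that both motifs can be read in them. The *Cdh1* promoter is printed up to the base before the start site, the *Etv5* region at 5.00 kb whole and the others as 120 bases, in GRCm38, plus strand, with AP-1 and CAGGTG matches on either strand in capitals.
Cdh1 promoter, EpH4 only, chr8:106603128-106603350: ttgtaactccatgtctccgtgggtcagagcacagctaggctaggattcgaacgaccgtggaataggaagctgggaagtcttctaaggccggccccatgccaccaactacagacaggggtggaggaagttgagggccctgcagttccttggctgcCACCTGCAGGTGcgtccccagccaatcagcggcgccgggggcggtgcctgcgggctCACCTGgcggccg
Cdh1 intron, EpH4 only, chr8:106616138-106616257: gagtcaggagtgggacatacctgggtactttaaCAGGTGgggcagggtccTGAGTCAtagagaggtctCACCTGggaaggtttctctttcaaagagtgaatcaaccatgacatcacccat
Cdh1 intron, EpRas only, chr8:106619739-106619858: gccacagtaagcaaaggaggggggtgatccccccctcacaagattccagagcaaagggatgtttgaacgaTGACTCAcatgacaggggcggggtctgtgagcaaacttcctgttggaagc
Etv5 intron, EpRas only, chr16:22389283-22389402: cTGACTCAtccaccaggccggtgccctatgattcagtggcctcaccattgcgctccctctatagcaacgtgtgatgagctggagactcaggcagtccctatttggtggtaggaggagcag
Etv5 at 5.00 kb, EpH4 only, chr16:22434586-22434858: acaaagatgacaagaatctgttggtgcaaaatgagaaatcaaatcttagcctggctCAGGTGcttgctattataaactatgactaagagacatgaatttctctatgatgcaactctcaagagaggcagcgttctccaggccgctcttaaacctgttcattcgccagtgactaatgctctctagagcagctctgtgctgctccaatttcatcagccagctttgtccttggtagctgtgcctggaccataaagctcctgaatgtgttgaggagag
Etv4 at 16.5 kb, EpRas only, chr11:101768805-101768924: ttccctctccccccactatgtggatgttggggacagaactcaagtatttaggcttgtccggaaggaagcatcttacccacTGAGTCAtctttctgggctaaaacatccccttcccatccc

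The *Cdh1* promoter stretch held 3 E-boxes and 0 AP-1 sequences, and the EpH4 intronic stretch held 2 and 1. The EpH4 stretch of *Etv5* held 1 E-box and 0 AP-1 sequences. The EpRas stretches of *Cdh1*, *Etv5* and *Etv4* each held 1 AP-1 sequence and 0 E-boxes. Among all 32851 promoter windows of 300 bp, 20.2% held CAGGTG and 5.20% TGACTCA. The printed stretches are shorter than these windows, and the intronic and intergenic ones are not promoters, so the shares are no direct background for them.

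**Figure D5:**
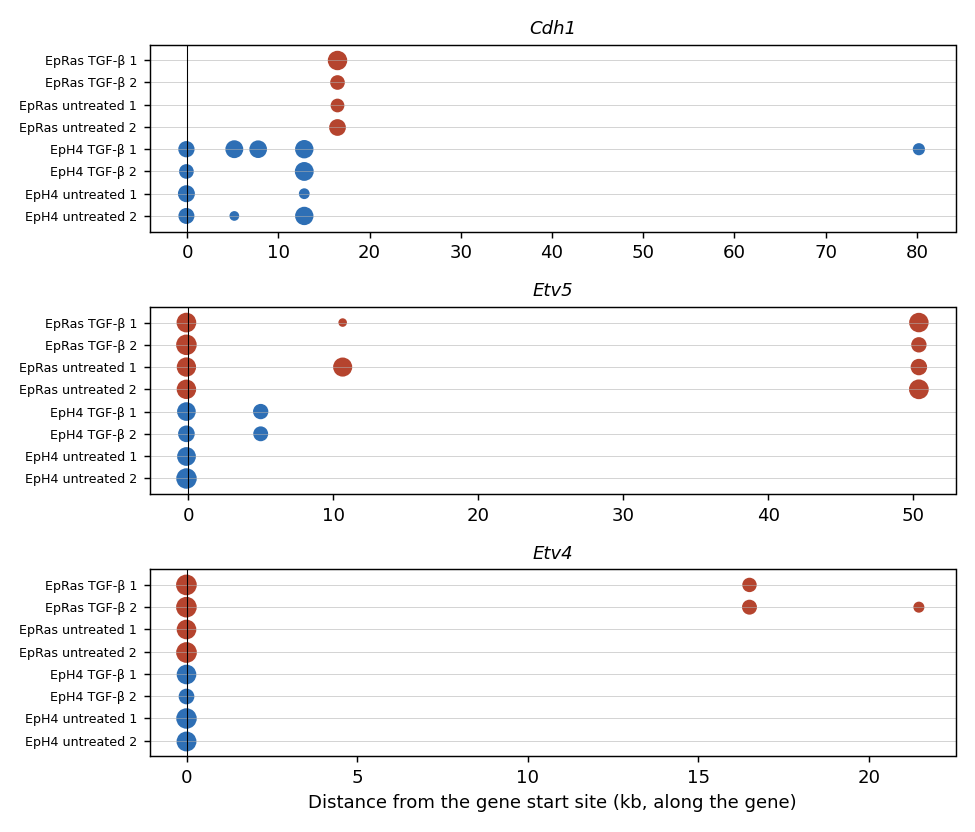
Peaks at *Cdh1*, *Etv5* and *Etv4* in the 8 libraries, by distance from the start site (kb), with the dot size giving the percentile of the score. The *Cdh1* promoter has peaks in EpH4 libraries only, and the *Etv5* region at 50.4 kb in EpRas libraries only.

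*Cdh2*, encoding N-cadherin, had 2 and 2 peaks in EpRas and 0 and 0 in EpH4 libraries under TGF-β, and 2 and 1 against 0 and 0 without it. They fell into 4 intronic regions under TGF-β, each called in 1 EpRas library, and with equal numbers of peaks the treated libraries held 0 and 1 against 0 and 0. Other genes followed in the study had peaks in both lines. The promoter of *Fn1*, encoding fibronectin, had a peak in all 4 treated libraries. The promoter of the splicing factor gene *Esrp2* had a peak in 1 EpRas and both EpH4 libraries, and a region -13.9 kb from the collagenase gene *Mmp13* likewise.

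Peaks within 20 kb of each gene were then counted for gene lists. Over all 15279 loci with a peak, both EpRas libraries had more peaks than both EpH4 libraries at 19.5%, and fewer at 2.6%. With equal numbers of peaks it was 11.2% and 10.7% of 12722 loci. List counts are read against these shares, and the median difference over all loci was 0.5 peaks with full lists and 0 with equal numbers.

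Mesenchymal and matrix genes had more peaks in EpRas cells at 10 of 18 loci and fewer at 0, with a median difference of 1.5 peaks. *Col1a1*, a collagen gene, had 6 and 5 peaks in EpRas and 2 and 2 in EpH4 libraries. *Vim*, encoding vimentin, had 5 and 1 against 0 and 0, and *Spp1*, encoding osteopontin, 2 and 2 against 0 and 0. With equal numbers of peaks 0 of 14 loci were higher in either line.

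Of TGF-β ligands, receptors and Smads 6 of 16 loci were higher in EpRas and 1 in EpH4 cells (median difference 0.75), and 2 and 1 of 15 with equal numbers. *Acvr1*, a type I receptor gene, had 4 and 4 peaks against 0 and 0, and 2 and 2 against 0 and 0 with equal numbers. *Smad3*, a receptor-activated Smad gene, changed direction, with 11 and 10 against 8 and 9 in full and 4 and 4 against 7 and 9 in equal lists. Of TGF-β targets 4 of 18 were higher in EpRas and 1 in EpH4 cells (median 1), but 0 and 3 of 17 with equal numbers. *Pmepa1*, an inhibitor of the pathway, had 6 and 3 against 7 and 7 peaks.

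Of Ras pathway and ERK feedback genes 3 of 23 were higher in EpRas and 0 in EpH4 cells, near the share of all loci, and 4 and 1 of 20 with equal numbers. *Nf1*, whose product inactivates Ras, had 8 and 4 against 1 and 1 peaks. *Dusp4*, an ERK phosphatase gene, had 1 and 1 against 0 and 0. Of EGF receptor family genes 0 of 11 were higher in EpRas and 2, *Erbb2* and *Erbb3*, in EpH4 cells. In equal lists these 2 overlapped, and 3 of 10, the ligand genes *Epgn* and *Ereg* and the receptor gene *Egfr*, were higher in EpH4 cells.

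Of AP-1 factor genes 2 of 11 were higher in EpRas and 0 in EpH4 cells, and 1 and 1 of 11 with equal numbers (median difference -0.5). *Fos* had 3 and 2 peaks against 0 and 0, and *Fosb* 6 and 6 against 4 and 1. In equal lists *Fos* stayed higher in EpRas cells, *Fosb* overlapped with 1 and 5 against 1 and 1, and *Fosl1* was higher in EpH4 cells with 2 and 2 against 4 and 3. Of ETS factor genes 3 of 15 were higher in EpRas, *Ets1*, *Etv1* and *Etv4*, and 1, *Ets2*, in EpH4 cells, and 3 and 1 of 13 with equal numbers. *Etv1* had 3 and 2 against 0 and 0 peaks, and *Ets2* 2 and 0 against 3 and 3. Of RUNX, NFI and C/EBP genes 3 of 10 were higher in EpRas and 0 in EpH4 cells (median difference 1.5). With equal numbers it was 1 and 3 of 10, while the median difference stayed on the EpRas side at 0.25. *Nfib* had 13 and 10 against 6 and 4 peaks and stayed higher in EpRas cells in equal lists, with 6 and 6 against 4 and 4.

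Of EMT transcription factor genes 1 of 11, *Tcf4*, was higher in EpRas and 0 in EpH4 cells, with 6 and 5 against 4 and 2 peaks, and 2 and 0 of 11 with equal numbers. *Snai1* had 3 and 4 against 3 and 2, and *Zeb2* 3 and 3 against 3 and 2. Of matrix metalloproteinases and inhibitors 3 of 15 were higher in EpRas and 0 in EpH4 cells, but 1 and 2 of 12 with equal numbers. *Mmp14* had 3 and 1 against 0 and 0 peaks and *Plau*, encoding urokinase, 1 and 2 against 0 and 0, and with equal numbers *Mmp14* had 0 peaks in all 4 libraries and *Plau* 0 and 1 against 0 and 0.

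Of epithelial junction and splicing genes, in full lists 1 of 19 was higher in EpRas, *Pkp3*, and 2, *Cdh1* and *Cldn3*, in EpH4 cells, and in equal lists 1 and 4 of 18. *Cldn3*, a tight junction claudin gene, had 3 and 4 against 6 and 6 peaks. Of epithelial identity factors 1 of 15 was higher in each line and 0 and 2 of 12 with equal numbers, and *Trp63*, the basal epithelial p63 gene, had 2 and 1 against 7 and 4. Of keratins 0 of 8 were higher in either line, and 1 of 7 in each with equal numbers.

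Of integrins and laminins 4 of 17 were higher in EpRas and 1 in EpH4 cells, and 4 and 5 of 17 with equal numbers. *Itgb3*, an integrin subunit gene, had 8 and 7 against 3 and 3 peaks. Of actin cytoskeleton genes 5 of 19 were higher in EpRas and 1 in EpH4 cells, and 3 of 19 each with equal numbers. Of Hippo pathway genes 1 of 11, *Axl*, and of housekeeping genes 1 of 10, *B2m*, were higher in EpRas cells, with 0 higher in EpH4 cells. With equal numbers it was 1 of 9 in EpRas and 2 in EpH4 cells for Hippo and 1 of 8 and 2 for housekeeping genes.

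Of the loci of mammary epithelium markers, 0 of 10 were higher in EpRas and 1 in EpH4 cells (median difference 0.5), and 1 and 2 of 10 with equal numbers. They held 12 EpRas-specific and 7 EpH4-specific regions. At the promoters of the 12 genes, 0 had a promoter region called in both EpRas and 4 in both EpH4 libraries, and 3 of these, *Cdh1*, *Grhl2* and *Krt8*, had no peak in either EpRas library. Over 5796 genes with a called promoter, 13.2% were called in EpRas only and 2.54% in EpH4 only. In the junction and splicing list 2 promoters were called in EpRas only and 1 in EpH4 only. Promoters called in both libraries of a line numbered 6 in EpRas and 6 in EpH4 cells in that list. They numbered 4 and 2 for epithelial identity factors and 2 and 2 for keratins. No share over all genes was made for these both-library counts, and list promoters were not counted with equal numbers of peaks. Of other cell types, 2 of 5 fibroblast and 2 of 6 immune loci with a peak were higher in EpRas cells, as were 0 of 4 endothelial and 0 of 6 adipocyte loci. With equal numbers, 0 of 3 fibroblast, 0 of 4 immune, 1 of 3 endothelial and 0 of 6 adipocyte loci were higher in EpRas cells. In EpH4 cells 0, 1, 1 and 0 of these were higher. The part of other cell types in the results was not tested.

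The highest-scored strictly specific promoters in EpRas cells were those of *Smpd3*, *Plin2*, *Ivd* and *Aldoc*, with mean percentiles of 97.4, 95.05, 94.7 and 92.7. Each also had a peak in both untreated EpRas and in 0 untreated EpH4 libraries. In EpH4 cells they were those of *Rhpn1*, *Ppm1g*, *Wfdc2* and *Rbbp8nl*, with 97.2, 88.8, 83.6 and 83.4. *Ppm1g* had peaks in both untreated EpRas and in 0 untreated EpH4 libraries, the reverse of the treated ones. *Wfdc2* had peaks in both untreated libraries of both lines. *Rhpn1* and *Rbbp8nl* had them in both untreated EpH4 and in 0 untreated EpRas libraries.

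*Myc*, a growth-promoting transcription factor gene, was the nearest protein-coding gene of 13 EpRas-specific regions, 5 of them strict, and of 17 shared regions. Noncoding genes, which may lie nearer, were left out here. The EpRas-specific ones lay 119 to 903 kb away. Within 20 kb of *Myc* there were 4 and 2 peaks in EpRas and 3 and 2 in EpH4 libraries. *Lingo2* followed with 12 EpRas-specific regions, 11 of them strict, and 13 and 10 peaks at its locus against 2 and 0. On the EpH4 side *Cebpb* and *Sik1* were nearest to 6 regions each. A run of 11 EpRas-specific regions on chromosome 5 lay in a cluster of *Speer4d*-like repeated genes, where short reads may be misplaced.

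Per chromosome, the share of peaks was higher in both EpRas libraries for 38.1% and higher in both EpH4 libraries for 42.9% of 21 chromosomes. EpRas-specific regions made up 81.0% of EpRas regions on chromosome 12 and 41.3% on chromosome 6. Copy number and accessibility cannot be told apart from peak lists.

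Of 6695 regions called in all 4 libraries, 0% were higher and 0% lower in EpRas cells by limma on log2 scores (Benjamini-Hochberg adjusted p under 0.05, smallest adjusted p = 0.122), while 447 and 384 had an unadjusted p under 0.05. A fit with a mean-variance trend had been run first and called 35 higher and 23 lower, and it was replaced after its calls were seen. The *Uaca* promoter had the second smallest p-value among the higher regions, with scores of 85.9 and 57.8 in EpRas and 17.5 and 14.8 in EpH4 libraries, a log2 difference of 1.80 ± 0.33 (SE, limma adjusted p = 0.122).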

How the data were processed

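FAIRE-seq libraries of EpH4 and EpRas cells were grouped by the sample labels, which also gave the replicate numbers. The study describes the replicates as biological. Per its methods, the authors sequenced on an Ion Proton, aligned the reads to mm10 using Bowtie2 and derived peaks from MACS2 (version 2.0.9) under a limit on the q value. The use of an input control and the treatment of duplicates are not given in the sources used here. The deposited lists, 1 per library, hold peak positions and a score in no stated unit, which served for ranking and, on the log2 scale, for limma. They hold no counts, so depth and the precision it gives are unknown, and a longer list may come from a deeper library. The authors' lists held 129466 peaks.

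The members, gene lists and motifs were chosen with earlier results of these data known. Overlap was at least 1 bp. Annotation was GENCODE vM21 (basic set) and sequence GRCm38, and positions are 1-based. Shares have Wilson 95% intervals. Library values were compared by exact permutation tests over 6 assignments. Regions in all 4 treated libraries were tested with limma (3.58.1, R 4.3.3) on quantile-normalized log2 scores. This fit had first been run with a mean-variance trend in the variance prior. That version was replaced by the default after its calls were seen, since the plan named no trend, and both are reported. Named were, per side, the highest-scored strictly specific regions (10) and promoters (8) and the 8 protein-coding genes nearest to most specific regions. Also named were list genes by their difference between lines in peak number, the genes the study followed and 5 limma regions per direction. Of all these the text gives a selection made after values were seen. A result on 1 gene is not reported here. The code for overlaps, motifs and limma was tested on simulated data. Python (3.11.15), numpy (2.4.6), pandas (2.3.3) and scipy (1.17.1) were used. Alternatives were equal numbers of peaks, stricter specificity, the upper part of each list, other windows and scalings, the replicate block and leaving out each library.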

Additional observations from a re-analysis of the deposited data

How the results depend on the processing

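The direction of the AP-1 and E-box differences held under 10 of 10 alternatives each. The specific share, 55.5% in EpRas and 26.5% in EpH4 cells, was 45.2% and 41.4% with equal numbers of peaks, 28.8% and 11.4% when no peak was allowed in either library of the other line, and 63.5% and 33.9% in the upper 50% of each list. Leaving out 1 library gave 32.3% to 70.9% and 12.9% to 43.0%. The remaining library of that line then counted alone, so the requirement of a call in both libraries was lost on that side. The promoter share of EpRas-specific and EpH4-specific regions was 34.7% and 35.98% with equal numbers, 22.4% and 22.6% under the strict rule, 36.8% and 38.9% in the upper 50%, and 26.2% and 27.2% with a 1 kb window. Leaving out 1 library gave 24.3% to 30.0% and 23.8% to 31.8%. The AP-1 difference of 10.8 points was 13.6 under the strict rule and 14.2 in the upper 50%, and 6.69 to 15.7 without 1 library. The E-box difference of -14.04 points was -10.9 with equal numbers and -19.0 under the strict rule, and -15.6 to -11.9 without 1 library. The difference for the ETS sequence CAGGAAG turned to -0.0884 points without EpRas TGF-β replicate 2, and leaving out 1 library gave up to 3.54.

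Loci with more peaks in EpRas (2972) and in EpH4 cells (397) became 1429 and 1358 with equal numbers. Leaving out 1 library gave 3307 to 7862, the highest without EpRas replicate 2, and 462 to 1860, the highest without EpH4 replicate 2. With a library left out, the rule asks for fewer libraries to differ and can only keep or raise these counts. Their rise is therefore no check of the result. By limma, 0 regions were higher and 0 lower. Median centring gave 20 and 29, percentiles on the logit scale 1 and 0, and the mean-variance trend, run first and kept as an alternative chosen after seeing the data, 35 and 23. Leaving out 1 library gave 0 in both directions, where a lone library was assumed to vary like the other group. The causes of these changes were not tested.

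With the replicate number as a block, the difference in peak number stayed at 0.62 on the log2 scale (exact sign-flip p = 0.5, the smallest possible), those in untreated calls at 24.4 and 22.1 points (exact p = 0.5), and limma gave 0 and 0. With 2 pairs, the numbers were not taken to pair the libraries. Leaving out 1 library, the difference in peak number ranged from 0.26 to 0.99, and those in untreated calls from 15.5 to 27.98 and from 9.62 to 35.0 points. Without counts, a site below the calling limit could not be told from a closed one.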
